A study of Homo sapiens with 32 samples.

Results

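The response of PC3 cells to CSN5i-3 was measured by RNA sequencing in 4 of the 32 libraries of the series. PC3 is a human prostate cancer line derived from a bone metastasis. The 2 treated libraries came from PC3 cells given CSN5i-3 at 10 µM, and the 2 controls from PC3 cells given DMSO, the solvent. The members of the comparison are all genes of the deposited count table, of which 16423 had enough counts to be tested. Beside it stand 3 further pairs of groups, each of 2 treated and 2 control libraries: PC3 with an shRNA to CSN5 (shCSN5) against a scramble shRNA, 22Rv1 with CSN5i-3 at 5 µM against DMSO, and LNCaP with CSN5i-3 at 5 µM against DMSO. 22Rv1 and LNCaP are also human prostate cancer lines. For replicate 2 of shCSN5 the title and description name the shRNA while a further label calls the cells drug treated, and it was grouped by the first. COPS5, the shRNA's target, was at 114 and 107 CPM with scramble and 11.8 and 12.5 CPM with shCSN5. The labels give neither the time of treatment nor whether the replicates were separate cultures, so the p-values measure the spread between these libraries, which may be technical. The question stated for the series is how loss of CSN5 activity acts on prostate cancer cells.

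CSN5, encoded by COPS5, is the metalloprotease subunit of the COP9 signalosome. This complex removes the ubiquitin-like protein NEDD8 from cullins, the scaffolds of the cullin-RING ubiquitin ligases, and so lets a ligase exchange the receptor that selects its substrate. CSN5i-3 blocks that enzyme, which leaves cullins carrying NEDD8 and can lead ligases to degrade their own receptors. The compound acts on the protein, so the RNA level of COPS5 does not check that the enzyme was blocked.

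The libraries held 50924252 and 48730486 counts with DMSO and 46710122 and 40637725 with CSN5i-3. Levels are in CPM, a gene's count relative to its library's total, scaled by the trimmed mean of M values, and a change is a log2 fold change, CSN5i-3 minus DMSO, ± its standard error with 2 libraries per group. The line's labels were checked against its markers: the vimentin gene VIM and the keratin gene KRT8 were abundant, while KLK2 had no counts and KLK3 had 1 count in 1 library. Of the other luminal genes that should be near 0, TMPRSS2 was detected, at 17.5 and 18.5 CPM with DMSO.

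Changes reached across the transcriptome, and the share of genes called depended on how the spread was estimated. At an adjusted p under 0.05 (edgeR quasi-likelihood F test, Benjamini-Hochberg over all genes tested), 12659 genes were called, 77.1% of those tested, with 6328 higher (38.5%) and 6331 lower (38.5%). Of the called genes, 46.1% changed by less than 1.5-fold, so a call alone says little about size. With a change of at least 2-fold also required, 3588 genes remained (21.8%), 1523 higher (9.27%) and 2065 lower (12.6%). The 2 libraries of one group did not overlap the other 2 in 87.3% of genes, so separation of 2 against 2 is the usual case here. Where it is stated below for single genes it describes them and adds no support for their change. The spread was also estimated over 12 libraries, adding those of PC3 with shCSN5 or scramble and of 22Rv1 with CSN5i-3 or DMSO. With that spread, 8576 of 18830 genes were called (45.5%), 3522 of them with at least 2-fold. A call lost this way can reflect the spread of the added libraries. Within PC3 with CSN5i-3 and PC3 with DMSO, the 2 libraries of each group agreed closely (common biological coefficient of variation 0.018). Lists below are read against 38.5% in each direction, and against 9.27% and 12.6% at 2-fold. The balance of these shares rests on the scaling, which puts the libraries on a common level. With most genes called, a shift common to all RNA could not be seen. RNA from a bulk culture cannot tell fewer cells of a kind from less RNA per cell.

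Some of the genes with the largest changes fell into recognisable groups. RSAD2, an interferon-induced antiviral enzyme, stood at 7.55 and 8.72 CPM in the DMSO libraries against 251 and 249 CPM in the treated ones, a log2 fold change of 4.94 ± 0.044 (adjusted p = 8.1e-63). ATP6V0D2, a subunit of the vacuolar proton pump, was at 0.413 and 0.328 CPM in the DMSO libraries against 11.4 and 12.2 CPM in the treated ones (4.98 ± 0.16). At the other end, CSF3, the granulocyte colony-stimulating factor gene, was at 76.9 and 76.8 CPM in the DMSO libraries against 1.37 and 1.26 CPM in the treated ones (-5.86 ± 0.077, adjusted p = 1.3e-54). In each of these 3 genes the difference inside a group was small. The 12 largest changes in each direction were taken from genes whose groups did not overlap, so their separation was set by that choice. IL1B, the gene of the inflammatory cytokine interleukin 1 beta, was at 194 and 194 CPM in the DMSO libraries against 9.33 and 9.96 CPM in the treated ones (-4.34 ± 0.044), and COL6A3, a collagen chain, at 58.1 and 56.7 CPM in the DMSO libraries against 2.87 and 2.86 CPM in the treated ones (-4.32 ± 0.071). Of the 12 largest increases, at least 8 are known interferon-induced genes: RSAD2, XAF1, TRIM22, IFITM1, CMPK2, IFIH1, IFI44L and MX2. SSTR5-AS1, among the largest decreases, is an antisense transcript. Whether its reads were counted by strand is not given in the sources used here, so it cannot be told from its partner gene.

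Other leading genes were of varied kinds. IL1RL1, the receptor for interleukin 33, went from 53.7 and 54.2 to 454 and 466 CPM (3.09 ± 0.029), and HDAC9, a class IIa histone deacetylase, from 21.7 and 21.8 to 161 and 159 CPM (2.88 ± 0.038). Both were higher in the 2 treated libraries. MUC5AC, a secreted mucin, fell from 14.1 and 14.4 to 0.621 and 0.617 CPM (-4.52 ± 0.14), and TNS4, a tensin of focal adhesions, from 10.3 and 9.97 to 0.342 and 0.247 CPM (-5.08 ± 0.18). SPC24, a subunit of the kinetochore, fell from 17.8 and 17.2 to 1.18 and 1.38 CPM (-3.78 ± 0.11). These 3 genes were lower in both treated libraries, to levels near or under 1 CPM. SHCBP1 (-4.06 ± 0.099), RASL11A (-4.03 ± 0.06), MALL (-4.000 ± 0.15), PHACTR3 (-3.80 ± 0.076) and TAGLN3 (-3.77 ± 0.12) completed the 12 largest decreases.

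**Figure D1:**
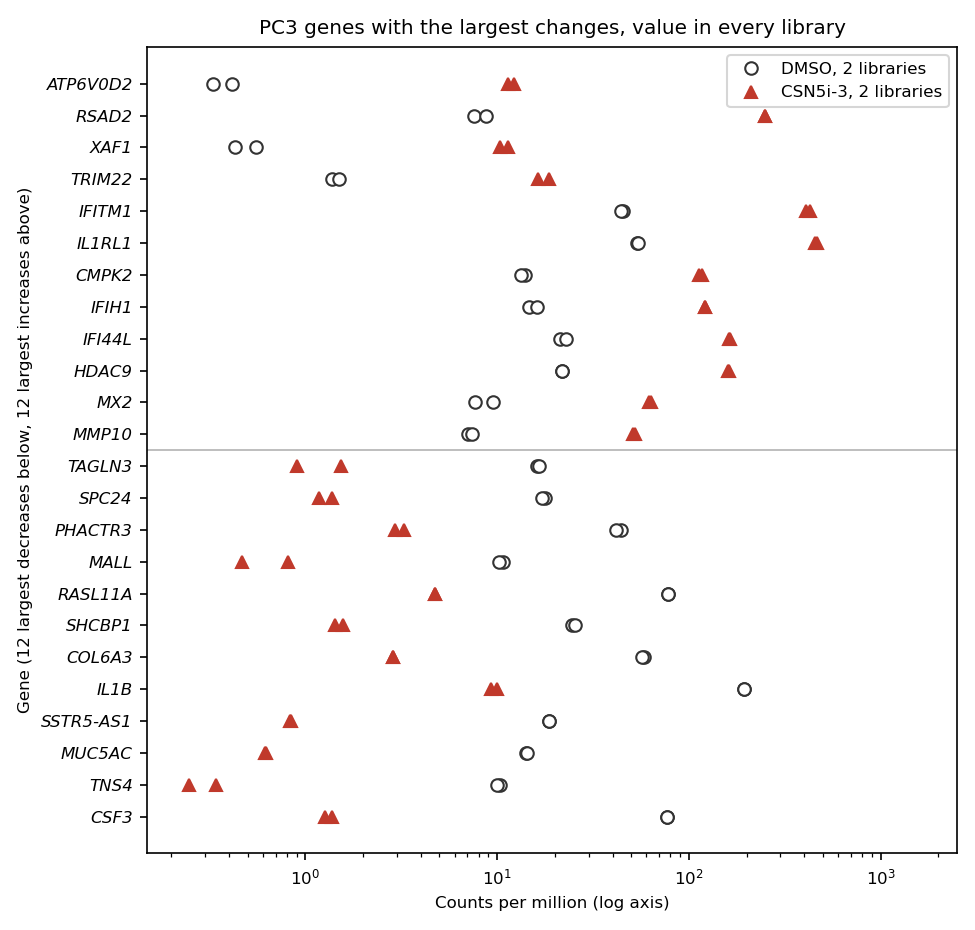
CPM in each of the 4 PC3 libraries (log axis) for the 12 genes with the largest increases (above the line) and the 12 with the largest decreases (below the line). Open circles are DMSO and red triangles are CSN5i-3. In replicate 1 of each group RSAD2 was at 7.55 against 251 CPM and CSF3 at 76.9 against 1.37 CPM. The genes were chosen from those whose groups did not overlap, so the separation in every row was set by that choice.

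Interferon-stimulated genes rose together. Interferon acts through receptors whose transcription factors, STAT2 and IRF9 among them, bind the interferon-stimulated response element in the promoters of antiviral genes. The 250 bases before the RefSeq start of 3 such genes (GRCh38.p14) are shown because they carry that element, which reads GAAA, any 2 bases and GAAA again, searched on both strands. The matches are in capitals and sequences run 5′ to 3′ on the gene's strand.
ISG15 (chr1:1013247-1013496, plus strand): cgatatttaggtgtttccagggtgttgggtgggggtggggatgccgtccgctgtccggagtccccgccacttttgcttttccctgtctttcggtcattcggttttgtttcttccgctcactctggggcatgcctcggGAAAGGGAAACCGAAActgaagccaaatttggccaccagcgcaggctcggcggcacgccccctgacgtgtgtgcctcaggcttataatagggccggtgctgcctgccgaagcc
IFIT1 (chr10:89392373-89392622, plus strand): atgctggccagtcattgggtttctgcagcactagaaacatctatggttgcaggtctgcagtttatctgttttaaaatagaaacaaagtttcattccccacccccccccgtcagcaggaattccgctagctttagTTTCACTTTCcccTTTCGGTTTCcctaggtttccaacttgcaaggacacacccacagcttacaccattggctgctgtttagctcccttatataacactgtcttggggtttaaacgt
RSAD2 (chr2:6877527-6877776, plus strand): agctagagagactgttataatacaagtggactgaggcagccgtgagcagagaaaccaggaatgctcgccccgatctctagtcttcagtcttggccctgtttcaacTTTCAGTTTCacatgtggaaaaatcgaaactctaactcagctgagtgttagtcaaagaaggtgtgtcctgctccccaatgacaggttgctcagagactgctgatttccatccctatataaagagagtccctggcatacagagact
The element was chosen after values were seen. Over windows from 250 bases before to 50 after the start, 18 of 26 listed interferon genes with a window held it (69.2%), against 3.95% of the 11661 tested genes with a window. A match describes these letters and is not evidence of binding.

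The list held 34 interferon-stimulated genes, of which all 34 were tested: 33 rose and 1 fell, 32 of them rose by at least 2-fold and the list's median log2 fold change was 2.39, against -0.0066 over all genes tested. ISG15, a ubiquitin-like modifier, was at 446 and 446 CPM in the DMSO libraries against 1409.5 and 1434 CPM in the treated ones (1.67 ± 0.023). The transcription factor gene IRF7, which carries the interferon loop forward, went from 139 and 134 to 393 and 408 CPM (1.55 ± 0.027). IFIH1, an RNA sensor, moved from 14.7 and 16.1 to 121 and 121 CPM (2.98 ± 0.043), and XAF1, an interferon-induced apoptosis factor, from 0.550 and 0.431 to 11.4 and 10.3 CPM (4.46 ± 0.16). All 4 libraries of each of these genes separated by group, and the difference inside a group was small beside the gap. ISG20, an exonuclease gene, was the only member to fall (-0.20 ± 0.039), and its call was lost when the spread came from 12 libraries. The interferon genes themselves were barely read with DMSO: IFNB1 had 3 and 6 counts with DMSO and 43 and 27 with CSN5i-3, and IFNL1 had 3 and 1 against 24 and 17. IFNL1 is itself a member of the list and is among its genes holding the element. IFNB1 and IFNL1 were singled out here after their values were seen, and with so few DMSO counts the size of their change is imprecise.

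Most of the interferon genes rose more with the inhibitor than with the knockdown. Not every member had enough counts in the other experiments, so differences are counted here and below over members tested in both, and set beside all genes tested in both. The list's median was 0.52 with shCSN5 (31 of 34 members tested there), 0.30 with CSN5i-3 in 22Rv1 (25) and 0.25 in LNCaP (28). Of 31 members tested for the difference between inhibitor and knockdown in PC3, 25 were above and 0 below (adjusted p under 0.05); over all such genes, 22.6% were above and 19.5% below. IFIH1 changed by 0.97 with shCSN5, and its difference of 2.08 ± 0.13 had an adjusted p of 4.1e-05. ISG15 changed by 0.17 there, and its difference of 1.56 ± 0.61 did not pass the test (adjusted p = 0.079). Its levels were 15.6 and 45.8 CPM with scramble and 23.9 and 44.8 CPM with shCSN5, so the libraries of each of these groups lay far apart, with replicate 2 the higher in both. The scramble and DMSO libraries of PC3 start from different levels for some of these genes, so RSAD2 was at 1.17 and 0.612 CPM with scramble and 7.55 and 8.72 CPM with DMSO. Against 22Rv1, 16 of 25 members were above and 2 below (18.7% and 20.8% over all such genes). Against LNCaP, 21 of 28 were above and 4 below (31.1% and 28.9% over all such genes). In both of these the dose (5 µM) differs as well as the line, which cannot be told apart. Markers of leukocytes had summed levels of 3.55 and 3.20 CPM in the DMSO libraries and 6.53 and 5.76 CPM in the treated ones, with 4 of 10 tested and TYROBP at 0, and their part in the rise was not tested.

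Genes of the endoplasmic reticulum and its stress response rose as well. The unfolded protein response raises chaperones and degradation factors when folding in that organelle is overloaded, and its factors bind the stress element, which reads CCAAT, any 9 bases and CCACG and was searched on both strands. The promoter of HSPA5, which encodes the chaperone BiP, is shown for the match in capitals.
HSPA5 (chr9:125241344-125241593, minus strand): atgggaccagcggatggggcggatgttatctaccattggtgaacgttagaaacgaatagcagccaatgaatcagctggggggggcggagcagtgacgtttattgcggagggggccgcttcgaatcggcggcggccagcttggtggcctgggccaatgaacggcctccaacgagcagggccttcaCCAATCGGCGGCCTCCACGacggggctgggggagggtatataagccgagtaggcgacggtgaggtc
This element, also chosen after values were seen, was in 7 of 22 listed genes with a window (31.8%) and in 0.137% of tested genes with one. For the list, 21 of the 23 tested members rose and 1 fell, 6 and 0 of them by at least 2-fold, with a median of 0.82. HSPA5 went from 827 and 838 to 2392 and 2358 CPM (1.51 ± 0.022), and DNAJB9, its co-chaperone, from 29.7 and 29.4 to 148 and 144 CPM (2.31 ± 0.037). The stress transcription factor gene XBP1 was at 165 and 161 CPM in the DMSO libraries against 362 and 362 CPM in the treated ones (1.15 ± 0.026) and HERPUD1, a degradation factor, at 119 and 121 CPM in the DMSO libraries against 257 and 249 CPM in the treated ones (1.08 ± 0.028). All 4 of these genes were higher in both treated libraries. The exception was CRELD2 (-0.37 ± 0.05), whose call was lost with the spread of 12 libraries. Against the knockdown, 19 were above and 1 below of 23 members, where the list's median was -0.13. Over all genes tested in both, 22.6% were above and 19.5% below.

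In the list of the integrated stress response, led by the transcription factor ATF4, some genes rose and others fell, which was also true of all genes tested. ATF4 raises genes for amino acid supply and for stress-induced death, and binds with partners the amino acid response element TGATGNAA, searched on both strands. The promoters of ATF3, a stress transcription factor, and CHAC1, which degrades glutathione, both hold it and are shown because the genes moved in opposite directions.
ATF3 (chr1:212565157-212565406, plus strand): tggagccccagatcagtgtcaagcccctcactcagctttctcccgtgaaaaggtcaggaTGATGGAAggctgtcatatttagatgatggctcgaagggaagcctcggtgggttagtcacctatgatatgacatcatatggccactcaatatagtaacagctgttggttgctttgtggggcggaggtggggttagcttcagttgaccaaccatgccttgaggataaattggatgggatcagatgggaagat
CHAC1 (chr15:40953221-40953470, plus strand): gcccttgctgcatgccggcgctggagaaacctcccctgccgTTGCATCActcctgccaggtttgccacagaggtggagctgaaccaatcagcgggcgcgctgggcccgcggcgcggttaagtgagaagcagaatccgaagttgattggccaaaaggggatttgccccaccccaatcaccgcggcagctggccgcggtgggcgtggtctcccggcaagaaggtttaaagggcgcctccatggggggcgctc
The element was in 6 of 14 called-higher members with a window (42.9%) and 5 of 11 called-lower members (45.5%), against 2.85% of tested genes. For the list, 16 of the 32 tested members rose (50%) and 13 fell (40.6%), against 38.5% in each direction over all genes tested. By at least 2-fold 6 rose and 2 fell, where all genes gave 9.27% and 12.6%, and the list's median was 0.09. ATF3 went from 51.2 and 52.2 to 341 and 327 CPM (2.69 ± 0.031) and DDIT3, the gene of the death-associated factor CHOP, from 108 and 108 to 629 and 644 CPM (2.56 ± 0.026). CHAC1 fell from 164 and 160.1 to 55.01 and 59.8 CPM (-1.50 ± 0.034), and PSPH, of serine synthesis, from 73.97 and 75.04 to 31.6 and 30.8 CPM (-1.25 ± 0.041). ATF4 itself was at 626 and 632 CPM in the DMSO libraries against 936 and 949.8 CPM in the treated ones (0.58 ± 0.022). The stress factors were thus higher and CHAC1 and PSPH lower in both treated libraries. Asparagine synthetase, ASNS, changed by -0.25 ± 0.025, and its call was lost with the spread of 12 libraries, under which 7 members were called lower.

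Most ATF4 genes differed between inhibitor and knockdown. With shCSN5 the list's median was 1.15, and 2 were above and 28 below the knockdown's change, of 32 members. Over all genes tested in both, 22.6% were above and 19.5% below. CHAC1 changed by 3.68 with shCSN5, a difference of -5.12 ± 0.29 (adjusted p = 2.9e-05), from 4.32 and 6.81 CPM with scramble and 59.7 and 82.3 CPM with shCSN5. ASNS changed by 2.03 with shCSN5 (difference -2.21 ± 0.13, adjusted p = 3.3e-05). For DDIT3 the change was 1.68 with shCSN5, so both treatments carried the same sign. CHAC1 was thus far lower with scramble than with DMSO, at 164 and 160.1 CPM, and the part of this gap in the difference was not tested.

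Cytokine genes split, with IL1B and CSF3 among those that fell and CSF2 among those that rose. In this list 8 of the 27 tested members rose and 17 fell, 5 and 11 of them by at least 2-fold, with a median of -0.50. IL1B and CSF3 were given above. TNFSF15, a tumour necrosis factor family ligand, went from 75.5 and 73.05 to 6.21 and 6.88 CPM (-3.51 ± 0.058), and the neutrophil attractants CXCL1 and CXCL5 from 507 and 507 to 86.1 and 79.2 CPM (-2.61 ± 0.029) and 93.4 and 92.4 to 21.3 and 20.001 CPM (-2.17 ± 0.043). All were lower in both treated libraries. In the other direction, CXCL8, another neutrophil attractant, rose from 785 and 778 to 1568 and 1555 CPM (0.999 ± 0.022), CSF2 from 20.8 and 21.8 to 77.3 and 78.6 CPM (1.87 ± 0.044) and TNFSF10, the death ligand TRAIL, from 2.75 and 2.52 to 8.35 and 8.61 CPM (1.68 ± 0.11). The AP-1 site TGACTCA (both strands) was in 4 of 23 listed genes with a window (17.4%), against 5.15% of tested genes.

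With shCSN5 most cytokine genes differed from their change with the inhibitor, and the controls differed too. The list's median was 1.93 with shCSN5, where 23 members were tested. By the test of the difference, 1 of these was above the knockdown's change with the inhibitor and 19 were below. Over all genes tested in both, 22.6% were above and 19.5% below. CXCL5 changed by 3.23 with shCSN5 (difference -5.33 ± 0.12, adjusted p = 6.6e-07). Its levels were 4.06 and 4.04 CPM with scramble and 39.3 and 36.7 CPM with shCSN5, so scramble was far below the DMSO libraries. For CSF3 the scramble libraries held 0.520 and 0.979 CPM against 76.9 and 76.8 with DMSO, and for TNFSF15 2.50 and 2.49 against 75.5 and 73.05. The part of this gap between the 2 control sets in the difference was not tested. Of the subunits and feedback inhibitors of NF-kB, a factor known to drive many cytokines, 13 of the 17 tested members rose and 3 fell, 5 and 0 of them by at least 2-fold, with BIRC3 (1.66 ± 0.035), TNFAIP3 (1.45 ± 0.043) and RELB (1.35 ± 0.033) the largest. NFKBIA, the classical inhibitor, rose by 0.29 ± 0.023.

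**Figure D2:**
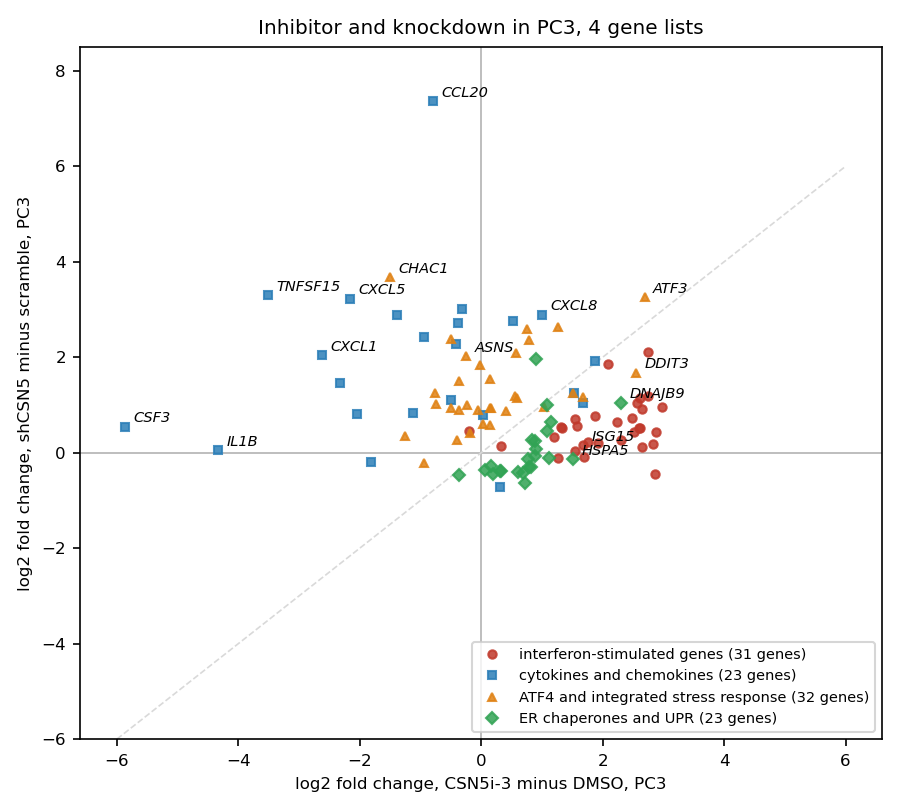
Each point is a gene of 4 lists, with its log2 fold change for CSN5i-3 minus DMSO on the horizontal axis and for shCSN5 minus scramble in PC3 on the vertical axis; the dashed line marks equal change. All interferon genes plotted but ISG20 lie to the right of 0, with ISG15 at 1.67 and 0.17, and several cytokine genes lie far to the left, with CSF3 at -5.86 and 0.55.

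Genes of mitosis fell furthest among the cell cycle groups. These genes are transcribed as cells approach division and cover the spindle, kinetochore and cyclin machinery. For the list, 3 of the 44 tested members rose and 41 fell, 1 and 38 of them by at least 2-fold, with a median of -2.02. TOP2A, which untangles DNA, went from 76.3 and 74.7 to 6.78 and 6.58 CPM (-3.50 ± 0.056), BIRC5, the survivin gene, from 245 and 252 to 21.4 and 23.2 CPM (-3.48 ± 0.037) and PLK1, a mitotic kinase, from 63.3 and 64.1 to 9.24 and 10.1 CPM (-2.72 ± 0.054). The mitotic cyclin CCNB1 fell from 120.1 and 119 to 30.9 and 31.4 CPM (-1.94 ± 0.038) and the kinase CDK1 from 42.1 and 43.4 to 9.61 and 9.59 CPM (-2.15 ± 0.059). Every one of these was lower in both treated libraries. FOXM1, a transcription factor of this programme, fell by less (-1.03 ± 0.031). LIN37 (1.22 ± 0.082), LIN52 (0.83 ± 0.06) and LIN54 (0.51 ± 0.077), core subunits of the MuvB complex that represses cell cycle genes in resting cells, were the 3 members to rise.

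Replication and repair genes fell by less. In the replication fork list 2 of the 34 tested members rose and 30 fell, 0 and 18 of them by at least 2-fold, with a median of -1.02. RRM2, a subunit of ribonucleotide reductase, went from 95.6 and 95.9 to 10.4 and 10.6 CPM (-3.19 ± 0.048), TK1, thymidine kinase, from 198 and 197 to 29.6 and 30.4 CPM (-2.72 ± 0.035) and UHRF1, which maintains DNA methylation, from 22.7 and 22.9 to 2.996 and 2.76 CPM (-2.98 ± 0.088). PCNA, the sliding clamp, changed by only -0.20 ± 0.033. In the origin licensing list 4 of the 24 tested members rose and 16 fell, 0 and 8 of them by at least 2-fold, with a median of -0.63. CDC45, a helicase subunit, fell from 18.1 and 20.04 to 3.62 and 3.33 CPM (-2.45 ± 0.09), and GINS2 from 15.98 and 16.1 to 3.23 and 2.61 CPM (-2.44 ± 0.097). CDT1, a licensing factor degraded by cullin ligases, changed by -0.24 ± 0.07 and CDC6 by -0.12 ± 0.053; the CDT1 call was lost with the spread of 12 libraries, and the CDC6 call also under DESeq2, with no low-count filter and without any 1 of the 4 libraries. In the homologous recombination list 2 of the 20 tested members rose and 17 fell, 0 and 11 of them by at least 2-fold, with a median of -1.34, and FANCD2 went from 24.6 and 25.9 to 5.39 and 5.15 CPM (-2.25 ± 0.076). The 2 members that rose became 1 with DESeq2, with the spread of 12 libraries, and without DMSO replicate 2, CSN5i-3 replicate 1 or CSN5i-3 replicate 2.

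The E2F site TTTCCCGC, searched on both strands, was in 7 of 30 replication fork genes with a window (23.3%) and in 7 of 21 licensing genes (33.3%), against 3.15% of tested genes. In the mitosis list it was in 2 of 36 (5.56%). Of the E2F and cyclin group, 8 of the 21 tested members rose and 12 fell, 1 and 4 of them by at least 2-fold: E2F1 changed by -1.997 ± 0.042, E2F8 by -2.57 ± 0.20, the cyclin D1 gene CCND1 by -1.75 ± 0.026 and the repressor E2F7 by 1.75 ± 0.033. Of the CDK inhibitors 3 of the 8 tested members rose (37.5%) and 4 fell (50%), against 38.5% in each direction over all genes tested. By at least 2-fold 0 rose and 0 fell. CDKN1B, the p27 gene, was at 0.86 ± 0.052, CDKN1A at 0.72 ± 0.029 and CDKN2C at -0.92 ± 0.059. In the knockdown the mitosis list's median was -0.43, and 2 were above and 40 below of 44 members. Over all genes tested in both, 22.6% were above and 19.5% below. The mitosis median was -1.69 in 22Rv1 and -5.05 in LNCaP. Of all genes tested in both PC3 and LNCaP, 31.1% were above in PC3 by the test of the difference. For mitosis genes the change in PC3 was above that in LNCaP in 41 of 44 members, with the dose higher in PC3. Of these, 38 were called lower in both lines and so fell less in PC3, and LIN37, LIN52 and LIN54 rose in PC3.

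**Figure D3:**
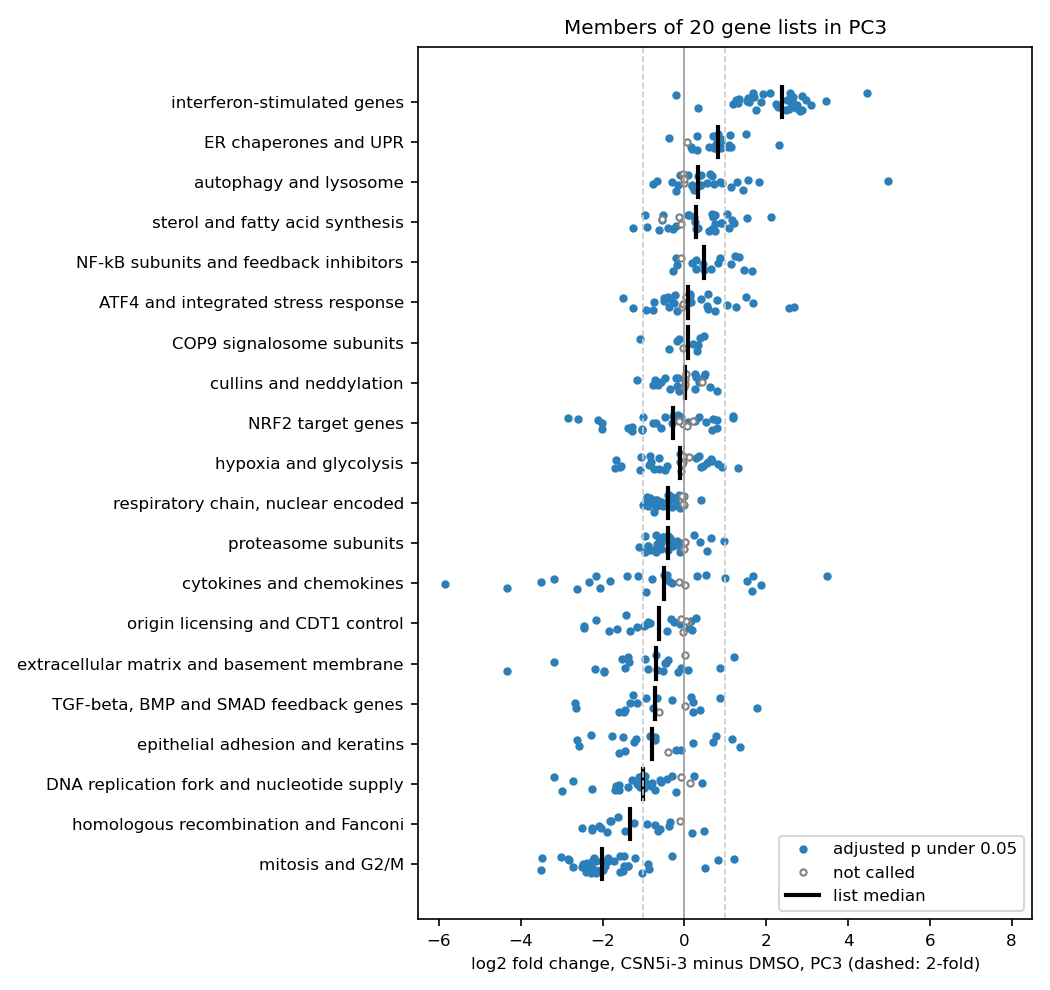
Log2 fold change, CSN5i-3 minus DMSO, of every tested member of 20 gene lists in PC3; filled points passed an adjusted p under 0.05, open points did not, the black bar is the list median and the dashed lines mark 2-fold. Interferon genes sit to the right (median 2.39) and mitosis genes to the left (median -2.02).

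Apoptosis genes changed in both directions, as did all genes tested. Among apoptosis genes 8 of the 26 tested members rose (30.8%) and 12 fell (46.2%), against 38.5% in each direction over all genes. By at least 2-fold 4 rose and 3 fell, where all genes gave 9.27% and 12.6%, and the list's median was -0.06. BMF rose from 18.5 and 18.6 to 60.1 and 60.6 CPM (1.70 ± 0.047) and BCL2L11, the BIM gene, by 1.12 ± 0.059, both of which promote death. BCL2A1, which opposes it, fell from 44.9 and 47.6 to 12.8 and 12.5 CPM (-1.87 ± 0.055).

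Most antioxidant genes under NRF2 were lower. NRF2 is degraded through the CUL3 receptor KEAP1 and drives detoxifying enzymes. For the list, 10 of the 33 tested members rose and 19 fell, 2 and 11 of them by at least 2-fold, with a median of -0.28. NQO1, a quinone reductase, went from 194 and 197 to 48.5 and 47.9 CPM (-2.02 ± 0.033), HMOX1, haem oxygenase, from 66.7 and 63.4 to 10.2 and 11.3 CPM (-2.60 ± 0.054) and AKR1C1 from 75.1 and 74.1 to 18.1 and 18.7 CPM (-2.02 ± 0.046). Each was lower in both treated libraries. The gene for NRF2, NFE2L2, rose by 0.79 ± 0.033 and GCLC, of glutathione synthesis, by 0.80 ± 0.033, so the list was not uniform. The antioxidant response element TGACNNNGC (both strands) was in 7 of 24 listed genes with a window (29.2%), against 19.3% of tested genes. In LNCaP the median was 1.24. By the test of the difference, 27 of 31 members were lower in PC3 than in LNCaP, against 28.9% of all genes tested in both. NQO1 changed by 1.24 in LNCaP (adjusted p of the difference 4.0e-09).

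Most proteasome and respiratory genes fell, by little. In the proteasome list 5 of the 35 tested members rose and 28 fell, 0 and 1 of them by at least 2-fold, with a median of -0.41. PSMD2 changed by -1.11 ± 0.023, and the members that rose included PSMB8 (0.65 ± 0.033) and PSMB9 (0.96 ± 0.055), subunits of the immunoproteasome that interferon induces. In the nuclear-encoded respiratory list 1 of the 36 tested members rose and 30 fell, 0 and 1 of them by at least 2-fold, with a median of -0.40. In the hypoxia and glycolysis list 11 of the 32 tested members rose (34.4%) and 16 fell (50%), 1 and 6 of them by at least 2-fold. Over all genes tested 38.5% rose and 38.5% fell. The glycolytic enzyme genes PGK1 (from 1012 and 1004 to 314 and 322 CPM, -1.67 ± 0.024) and LDHA (from 1622 and 1648 to 567 and 553 CPM, -1.55 ± 0.023) fell while the hexokinase gene HK2 rose (0.83 ± 0.033). Sterol and fatty acid synthesis genes leaned upward: 21 of the 33 tested members rose and 9 fell, 6 and 1 of them by at least 2-fold. INSIG1, a sterol sensor, went from 12.2 and 13.5 to 56.5 and 55.8 CPM (2.13 ± 0.053). PMVK, an enzyme of sterol synthesis, fell (-1.25 ± 0.039). Autophagy and lysosome genes leaned upward too, as 21 of the 31 tested members rose and 6 fell, 6 and 0 of them by at least 2-fold; WIPI1 rose from 69.4 and 69.3 to 246 and 245 CPM (1.82 ± 0.03) and NEU1 by 1.56 ± 0.026.

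Most matrix and adhesion genes fell. In the extracellular matrix list 3 of the 23 tested members rose and 19 fell, 1 and 9 of them by at least 2-fold, with a median of -0.68. TNC, tenascin C, went from 263 and 261 to 57.2 and 58.7 CPM (-2.18 ± 0.031), COL4A1 from 22.8 and 22.6 to 5.80 and 5.87 CPM (-1.96 ± 0.075) and THBS1 from 47.004 and 47.6 to 16.03 and 16.7 CPM (-1.53 ± 0.052). LAMA3, a laminin chain, rose (1.20 ± 0.027). Fibroblast markers summed to 66.4 and 62.3 CPM with DMSO and 16.4 and 16.2 with CSN5i-3, mostly COL1A1 (57.1 and 53.5 to 14.4 and 14.1 CPM); 5 of 10 were tested and POSTN was at 0, and their part in the matrix change was not tested. In the list of epithelial adhesion and keratin genes 5 of the 20 tested members rose and 14 fell, 2 and 9 of them by at least 2-fold. CLDN4 went from 210.1 and 203 to 34.8 and 34.4 CPM (-2.58 ± 0.035) and CDH1, E-cadherin, from 2.02 and 2.26 to 0.728 and 0.691 CPM (-1.59 ± 0.23), whereas OCLN rose (1.36 ± 0.097). The 5 that rose became 3 without DMSO replicate 2 or CSN5i-3 replicate 1. Of the transforming growth factor beta, bone morphogenetic protein and SMAD feedback genes 6 of the 20 tested members rose and 12 fell, 1 and 8 of them by at least 2-fold. ID1 was at -2.67 ± 0.047 and SMAD7, the inhibitory SMAD, at 1.78 ± 0.11. The 6 that rose became 3 with DESeq2, with the spread of 12 libraries and without CSN5i-3 replicate 1. Among genes of matrix metalloproteinases and the plasminogen system 5 of the 15 tested members rose and 9 fell, 3 and 5 of them by at least 2-fold. MMP1 rose from 34.6 and 34.3 to 215 and 212 CPM (2.63 ± 0.034) and MMP10 from 7.03 and 7.42 to 52.3 and 50.9 CPM (2.84 ± 0.059), while PLAU, the urokinase gene, fell (-1.48 ± 0.022). MMP9 also fell (-1.85 ± 0.39), but its size is imprecise, and the gene was not tested in the knockdown, 22Rv1 or LNCaP.

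The signalosome and the ligases it acts on changed modestly. COPS5 was at 72.9 and 73.8 CPM in the DMSO libraries against 102 and 102 CPM in the treated ones (0.48 ± 0.033), and COPS6, its partner subunit, fell from 240.2 and 244 to 115 and 114 CPM (-1.08 ± 0.028). Of the 10 signalosome subunits, 5 rose and 4 fell. Among cullins and neddylation genes 8 of the 24 tested members rose and 11 fell, 0 and 1 of them by at least 2-fold, with CUL7 at -1.16 ± 0.041 and NUB1, which lowers NEDD8, at 0.81 ± 0.03. Of the receptors, 31 of 57 F-box genes rose and 21 fell, 20 of 46 BTB genes rose and 19 fell, and 28 of 54 genes for CUL4, CUL2 and CUL5 rose and 18 fell. Over all genes tested, 38.5% rose and 38.5% fell. FBXO2 went from 36.6 and 37.5 to 4.88 and 5.23 CPM (-2.88 ± 0.07), FBXL20 rose (1.70 ± 0.077), KLHL4 rose (2.05 ± 0.083), and CRBN, the receptor bound by thalidomide, rose (1.06 ± 0.04). SKP2, the receptor for p27, changed by -0.38 ± 0.071. With the spread of 12 libraries 5 cullin and neddylation genes were called higher and 5 lower, 3 signalosome subunits higher and 1 lower, and the counts of members called lower came to 10 of the F-box genes, 7 of the BTB genes and 10 of the CUL4, CUL2 and CUL5 genes.

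Set against the other experiments, the inhibitor effect in PC3 was shared only in part. Over all genes, 16.7% were called with shCSN5, 24% with CSN5i-3 in 22Rv1 and 52.5% in LNCaP. These shares depend on the spread and depth of each experiment's libraries, so they do not compare the size of the effects. In PC3 with CSN5i-3 the share was 77.1%, and 45.5% with the spread of 12 libraries. Across genes the log2 fold changes in PC3 correlated with those of the knockdown at Pearson's r 0.281 (15043 genes), of 22Rv1 at 0.142 (14611) and of LNCaP at 0.317 (14024). Genes within a library are not independent, and these values carry no test. Some list medians were close between inhibitor and knockdown in PC3: proteasome (-0.41 and -0.48), nuclear-encoded respiratory (-0.40 and -0.37) and origin licensing (-0.63 and -0.58). The interferon, endoplasmic reticulum, ATF4, cytokine and mitosis medians lay further apart, as given above. Between inhibitor and knockdown in PC3, 6559 of 16794 genes (39.1%) differed; with the replicate number as a term the number was 10074, and without CSN5i-3 replicate 1 it was 4337. Against 22Rv1, 6174 of 18577 (33.2%) differed, with the replicate number as a term 2673, and without each 1 of the PC3 libraries in turn (DMSO replicates 1 and 2, CSN5i-3 replicates 1 and 2) 3977 to 4088. Against LNCaP, 8848 of 18591 (47.6%) differed. All 3 differences use the same 4 PC3 libraries.

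**Figure D4:**
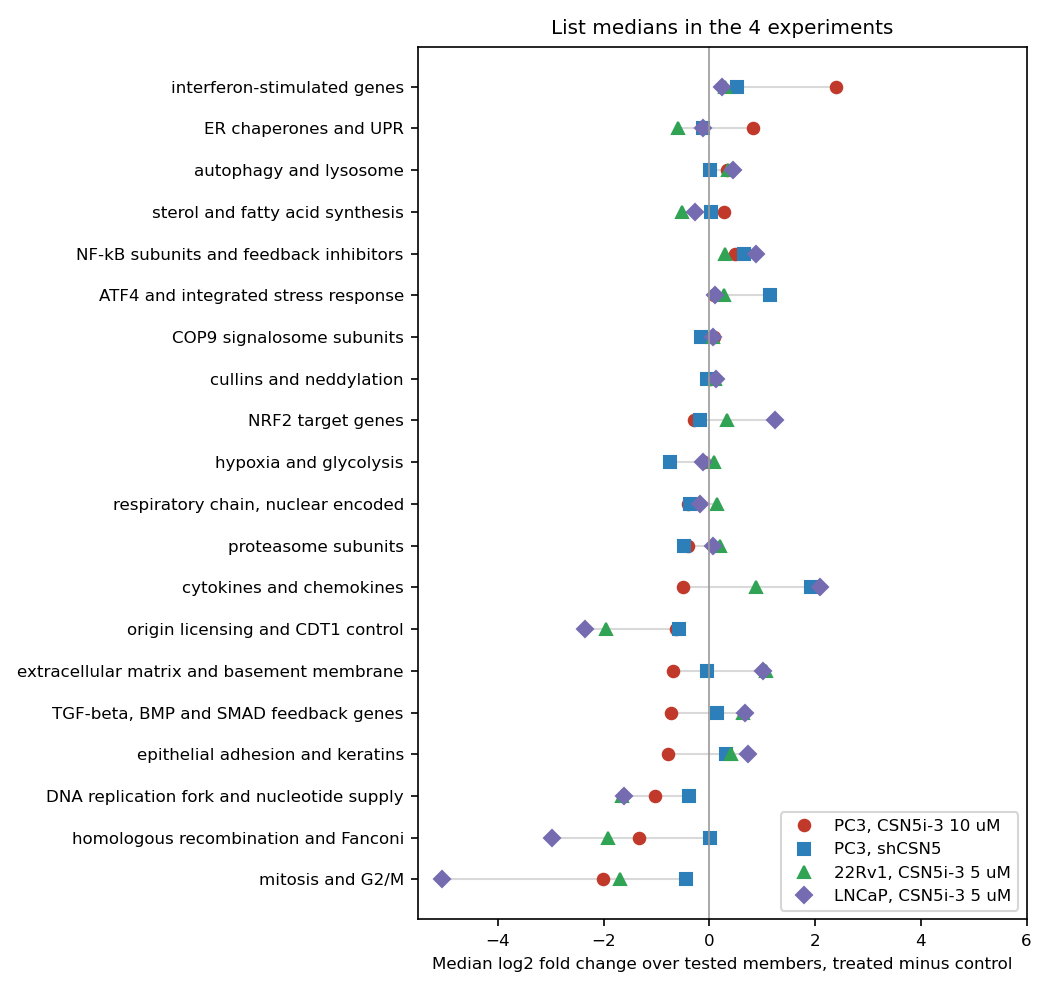
Median log2 fold change over the tested members of 20 gene lists in 4 experiments: PC3 with CSN5i-3 (red circles), PC3 with shCSN5 (blue squares), 22Rv1 with CSN5i-3 (green triangles) and LNCaP with CSN5i-3 (purple diamonds). The interferon list is furthest right in PC3 with CSN5i-3 (median 2.39), and the mitosis list furthest left in LNCaP (-5.05).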

How the data were processed

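RNA sequencing libraries of total RNA were used for PC3 with CSN5i-3 at 10 µM (2) and with DMSO (2), beside PC3 with shCSN5 and scramble, and 22Rv1 and LNCaP with CSN5i-3 at 5 µM and DMSO (2 each). The authors deposited raw counts per gene, and the submitters' processing notes name Partek; the sources used here give no aligner, genome build or strand setting. In the tables used, 4 sample columns of other groups were left out. Genes were filtered with filterByExpr (minimum count 10), scaled by TMM and tested with the edgeR 4.0.16 quasi-likelihood F test in R 4.3.3, with Benjamini-Hochberg adjustment over all genes; differences between experiments were tested in one model, on genes joined by identifier or, for LNCaP, by symbol. The steps were run on simulated counts with few changed genes, unlike these data, so this does not check the scaling or error rate here. Library totals ran from 25517922 to 50924252 counts. The alternatives were DESeq2 1.42.0, DESeq2 size factors, total counts, no filter, a spread from 12 libraries, the replicate number as a block and leaving out each library. Named genes were the 12 largest changes in each direction that averaged 5 CPM or more and did not overlap between groups (passing over clone-based, pseudogene and uncharacterised names), preset key genes, for each list the 3 largest increases and 3 largest decreases among its called members (mean of at least 5 CPM), and the 6 largest differences from each other experiment. Differences of list members were counted over genes tested in both experiments. Promoter windows came from RefSeq (GRCh38.p14), matched by symbol. Some genes are not reported here. The members and gene lists were chosen with earlier results of these data known.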

Additional observations from a re-analysis of the deposited data

Results flagged for a closer look

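The inhibitor effect of a gene in PC3 was compared with its effect in 22Rv1 and in LNCaP by a test of the difference itself (edgeR quasi-likelihood F test), and genes are listed because the effects differed. They come from the 6 largest differences in each direction per line, and 6 of these 12 genes against 22Rv1 and 3 of 12 against LNCaP were left out because they had too few counts to be tested in that line, so no effect was measured there. Values are differences of log2 fold changes, PC3 minus the other line. The dose was 10 µM in PC3 and 5 µM in the other lines, so line and dose cannot be told apart. Against 22Rv1, the genes below 0 were these. S100A3, a calcium-binding protein gene, differed by -9.39, with 0 and 0 counts with DMSO and 24 and 18 with CSN5i-3 in 22Rv1. MALL differed by -9.21, with 5 and 3 counts with DMSO and 166 and 123 with CSN5i-3 in 22Rv1. SERPIND1, heparin cofactor II, differed by -8.74, with 1 and 0 counts with DMSO and 65 and 50 with CSN5i-3 in 22Rv1. TNS4 differed by -8.06, with 107 and 115 counts with DMSO and 979 and 698 with CSN5i-3 in 22Rv1. Of these 4 genes, TNS4 had more than 100 counts in every 22Rv1 library. Against 22Rv1, the genes above 0 were as follows. IFITM1, an antiviral membrane protein gene, differed by 4.95, with 20 and 22 counts with DMSO and 7 and 5 with CSN5i-3 in 22Rv1. RSAD2 differed by 6.10, with 157 and 122 counts with DMSO and 62 and 56 with CSN5i-3 in 22Rv1. S100A3, MALL and SERPIND1 were at or near 0 counts with DMSO in 22Rv1, where the fitted difference depends on the prior count and is not a bound.

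Against LNCaP, 3 keratin genes were among those below 0. KRT81 differed by -10.37, with 0 and 0 counts with DMSO and 57 and 59 with CSN5i-3 in LNCaP. KRT7 differed by -9.34, with 2 and 0 counts with DMSO and 153 and 142 with CSN5i-3 in LNCaP. KRT80 differed by -8.19, with 141 and 208 counts with DMSO and 7816 and 8580 with CSN5i-3 in LNCaP. SSTR5-AS1, an antisense transcript, differed by -8.58, with 4 and 3 counts with DMSO and 53 and 70 with CSN5i-3 in LNCaP. KCNN4, a potassium channel gene, differed by -7.98, with 0 and 1 counts with DMSO and 17 and 27 with CSN5i-3 in LNCaP. Above 0, KIF20A and PIF1 are genes of cell division and DNA unwinding. KIF20A differed by 5.47, with 1861 and 1770 counts with DMSO and 8 and 13 with CSN5i-3 in LNCaP. UGT8 differed by 5.70, with 50 and 47 counts with DMSO and 2 and 0 with CSN5i-3 in LNCaP. PIF1 differed by 6.06, with 211 and 239 counts with DMSO and 3 and 0 with CSN5i-3 in LNCaP. IFITM1 differed by 8.19, with 16 and 23 counts with DMSO and 0 and 1 with CSN5i-3 in LNCaP. The UGT8 change in PC3 lost its call without CSN5i-3 replicate 1 and with the spread of 12 libraries. Low counts in LNCaP limit several of these values in the same way.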

How the results depend on the processing

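The counts of genes called for CSN5i-3 against DMSO stayed within 1.5 times under every alternative run: 12659 genes became 8576 with the spread of 12 libraries (77.1% of the genes tested became 45.5%), 11069 with DESeq2, 12812 with no low-count filter and 12621 with the replicate block, and 11872 to 12131 without one library. At 2-fold, 3588 became 3225 with DESeq2, 3890 with no low-count filter and 3453 to 3598 without one library. None of the genes called here was called in the opposite direction under these alternatives, and 8367 of them kept their call and direction with the spread of 12 libraries. The median over all genes moved between -0.021 and -0.0017, and genes called higher were 49.7% to 51% of those called. Both are set largely by the scaling, which puts the libraries on a common level under each alternative, so they are no sign of stability. Of the 353 named genes called, 51 lost the call with the spread of 12 libraries and at most 8 under any other alternative, and none reversed. Same-numbered treated and control libraries deviated from their group means with a correlation of -0.00096 in PC3 with CSN5i-3, 0.54 in PC3 with shCSN5, -0.64 in 22Rv1 and -0.094 in LNCaP; with 2 pairs each and no label that ties the numbers, the pairing is unknown. The difference from shCSN5, 6559 genes, became 10074 with the replicate block (ISG15 then passed, adjusted p = 3.3e-15) and 4337 to 4600 without one library. The difference from 22Rv1, 6174 genes, became 2673 with the replicate block, 10562 with the pairing crossed in 22Rv1, an alternative chosen after seeing the data, and 3977 to 4088 without one library, and the difference from LNCaP, 8848 genes, 7917 and 7552 to 7724. The cause of these changes was not tested. With 2 libraries per group there are 2 residual degrees of freedom, and genes with few counts are limited by depth.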

Other observations

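Stress and growth genes outside the groups above also moved, where 38.5% of all genes tested rose and 38.5% fell. In the heat shock list 9 of the 19 tested members rose and 9 fell, 3 and 4 of them by at least 2-fold, with the co-chaperone gene BAG3 from 139.9 and 142 to 47.4 and 46.4 CPM (-1.59 ± 0.034) and DNAJB1 in the other direction, from 186 and 183 to 459 and 446 CPM (1.29 ± 0.025). The immediate early genes JUN (1.10 ± 0.033), EGR1 (1.06 ± 0.29) and KLF6 (1.41 ± 0.026) rose and IER2 (-1.22 ± 0.025) fell, in a list where 13 of the 22 tested members rose and 8 fell, 3 and 3 of them by at least 2-fold. Of the MAP kinase phosphatase and Sprouty genes, which restrain growth factor signalling, 6 of the 15 tested members rose and 9 fell, 3 and 3 of them by at least 2-fold: DUSP10 rose from 7.78 and 7.44 to 25.8 and 26.95 CPM (1.79 ± 0.069) and SPRY2 by 1.57 ± 0.029, while SPRY4 fell by 1.15. MYC rose from 95.03 and 94.2 to 203 and 212 CPM (1.13 ± 0.03), and MXD1, which competes with it, by 1.81 ± 0.044, whereas among ribosome biogenesis and MYC genes 9 of the 32 tested members rose and 19 fell, 3 and 2 of them by at least 2-fold, with BOP1 at -1.18 ± 0.072 and POLR1A at -1.09 ± 0.037. Cytosolic ribosomal protein genes moved little: 23 of the 40 tested members rose and 10 fell, 0 and 0 of them by at least 2-fold.

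Clock, lineage and pathway genes varied as well, again beside 38.5% of all genes tested in each direction. Among clock genes 8 of the 16 tested members rose and 4 fell, 2 and 1 of them by at least 2-fold: PER2 went from 9.51 and 8.94 to 3.55 and 3.38 CPM (-1.41 ± 0.10) and BMAL1 from 8.98 and 9.13 to 22.1 and 20.9 CPM (1.25 ± 0.069). HOXB13, a prostate lineage factor, fell from 377 and 382 to 92.2 and 98.6 CPM (-1.99 ± 0.029), in a list of luminal genes where 2 of the 11 tested members rose and 6 fell, 0 and 3 of them by at least 2-fold. Of the mesenchymal genes 6 of the 15 tested members rose and 8 fell, 0 and 3 of them by at least 2-fold, with S100A4 from 94.6 and 89.7 to 30.8 and 33.2 CPM (-1.53 ± 0.041) and ZEB1 at 0.64 ± 0.047. Of the Notch genes 4 of the 11 tested members rose and 5 fell, 2 and 2 of them by at least 2-fold. HES1, a target, rose by 1.29 ± 0.048, whereas JAG1, a ligand, fell (-0.74 ± 0.029), as did HES4 (-0.53 ± 0.096), whose call was lost with the spread of 12 libraries. Among YAP and TEAD targets 6 of the 18 tested members rose and 10 fell, 1 and 2 of them by at least 2-fold, with CCN2 at -0.94 ± 0.059 and ANKRD1 at 1.29 ± 0.27. With the spread of 12 libraries the members that rose came to 5 of the clock genes, 2 of the mesenchymal genes and 3 of the YAP and TEAD targets, and the Notch genes that fell to 3.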
